A study of Sus scrofa with 16 samples.

Results

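The cytosolic ribosome is the particle that translates messenger RNA, and it is built from ribosomal RNA and a fixed set of proteins. The proteins of the small subunit are named RPS and those of the large subunit RPL. Their messenger RNAs start with a run of pyrimidines, the terminal oligopyrimidine or TOP motif, through which nutrient signalling by mTOR controls how much of them is translated, and they are among the abundant messengers of most tissues. Several of these genes are used as references in quantitative PCR on the premise that their level is steady.

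The ribosomal protein genes were taken as all genes whose symbol starts with RPL or RPS and a digit, or is RPSA, RPLP0, RPLP1 or RPLP2, with the S6 kinase genes left out. This rule used names only and no measured value. It found 64 genes, 26 RPS and 38 RPL, of the 6765 genes to which the array annotation gives 1 symbol. Of these, 58 are core proteins of the ribosome. Another 5 are paralogs (RPL7L1, RPL22L1, RPL26L1, RPL36AL and RPS27L), and RPS19BP1 encodes a protein that binds RPS19 and is no ribosomal protein itself. The 64 genes had 96 probe sets between them, and 40 genes had 1 probe set. A gene with several was represented by the probe set of highest mean over all arrays. The RefSeq table of the pig lists 20 more symbols that meet the rule, and these were not analysed here.

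The samples came from the liver and the fat under the skin of the back (backfat) of Iberian pigs slaughtered at 211 days of age. The pigs were male or female and fed at a high level or at a level restricted by 20%, called low feeding below, on the same pelleted diet. Each of the 8 groups of tissue, sex and feeding had 2 arrays. A tissue thus had 8 arrays, split 4 against 4 by sex or by feeding, and no group carried a transgene or other agent. RNA of whole tissue was hybridised to a porcine Affymetrix array, and all values are deposited log2 expression values made with GCRMA, on which a difference of 1 is a doubling. The labels number the animals, and males 14 to 17 each gave both tissues. Female numbers 20 and 21 carry opposite feeding levels in liver and backfat, and the labels hold 10 combinations of sex and number where the design text speaks of 8 animals, so no female was treated as paired.

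Arrays of 1 tissue correlated at 0.972 or more over all probe sets, and arrays of different tissues at 0.840 or less. The 11 hepatocyte markers measured were above 4, the level used here as the limit of detection, on all liver arrays. The 8 adipocyte markers measured were above 4 on all backfat arrays, and 6 of them (ADIPOQ, CIDEA, LEP, LIPE, LPL and PPARG) were above 4 on no liver array. The mean of the hepatocyte markers in backfat ranged from 3.57 to 7.04 over the arrays, with APOA1, an apolipoprotein, at 10.68 to 11.68 there against 14.60 to 15.05 in liver. Lymphocyte and skeletal muscle markers lay near the floor in both tissues. Female 21 of backfat stood apart in the control probe set for 28S ribosomal RNA, at 5.44 against a median of 8.51 over the backfat arrays.

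Of the 64 genes, 61 were above 4 on all 16 arrays and 62 entered the tests. RPL30 and RPS15A were not tested, because their probe sets were above 4 on no array (3.11 to 3.87 and 2.41 to 2.57). RPL26 passed the filter on 12 arrays and lay between 3.68 and 4.60, so its values are close to the limit throughout. The ribosomal protein genes varied little between arrays of 1 group. Their median within-group SD was 0.116 in liver and 0.074 in backfat, against 0.247 and 0.258 over all probe sets tested in the tissue. RPL22L1 had the largest such SD of the members in liver, 0.361, and RPL37 in backfat, 0.252. Of the members, 54 had a mean above 12, and their SD was not compared with that of other probe sets as bright.

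Liver was first compared with backfat, over both sexes and feeding levels. Ribosomal protein messages were lower in liver. Of the 62 genes tested, 54 passed the test with a lower level in liver and 3 with a higher one, while 5 did not pass (limma over all 16 arrays, Benjamini-Hochberg adjusted p below 0.05 over all 13962 probe sets tested). Over all probe sets 43.6% passed as lower in liver and 32.2% as higher. The median difference of the 62 genes was -0.71, and that of all probe sets -0.15. The values of all 8 liver arrays lay below those of all 8 backfat arrays for 48 members and above them for 3, against 26.7% and 18.3% of all probe sets. In tissue RNA, fewer cells that express a gene and less of its RNA per cell cannot be told apart.

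**Figure D1:**
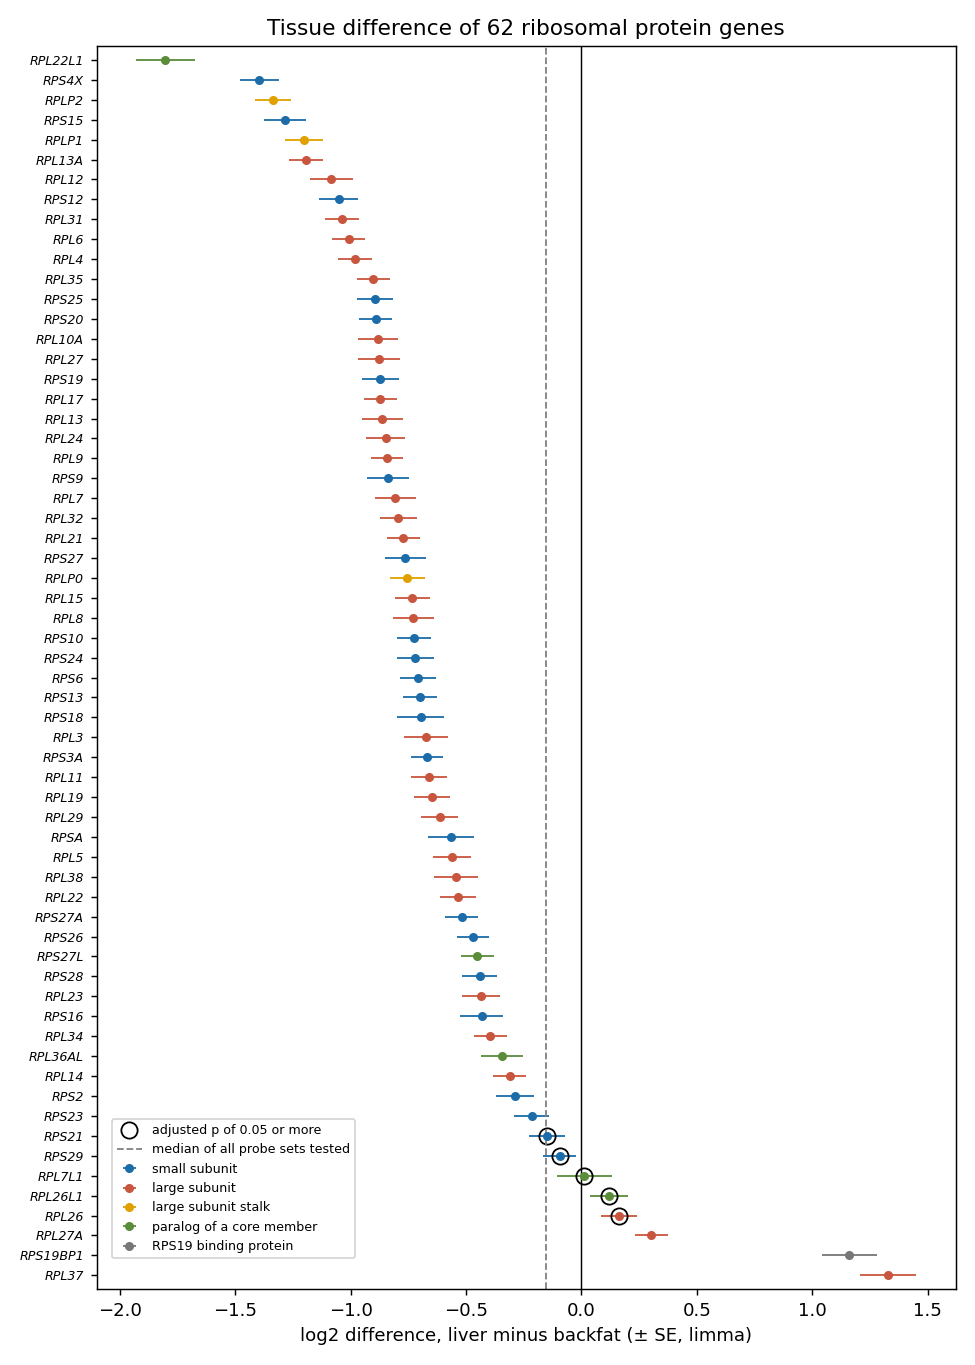
Log2 difference between liver and backfat for the 62 ribosomal protein genes tested, ordered by size, with the standard error from limma as bars (n = 8 arrays per tissue). Most genes lie between -1.4 and -0.2, RPL22L1 lies lowest at -1.80 and RPL37 highest at 1.33; circled points did not pass the test, and the dashed line is the median of all probe sets.

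In the small subunit, 21 of the 23 core genes tested were lower in liver, and RPS21 and RPS29 did not pass. The median difference was -0.70. RPS4X, the X-linked member of its family, ranged over 12.04, 12.18 and 12.35 in liver (lowest, median and highest of 8 arrays) and over 13.46, 13.55 and 13.96 in backfat. The 2 tissues were separated by more than the range within either, and the fitted difference was -1.39 ± 0.085 (SE, adjusted p = 2.9e-08, limma), a 2.63-fold lower level in liver. RPS15, a protein of the small subunit head, ranged over 12.28, 12.45 and 12.74 in liver against 13.58, 13.78 and 13.92 in backfat, a difference of -1.28 ± 0.090. RPS12 ranged over 12.96, 13.26 and 13.40 in liver against 14.19, 14.30 and 14.36 in backfat, a difference of -1.05 ± 0.084. For both genes all liver arrays were below all backfat arrays.

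RPS6, the substrate of S6 kinase and thus a readout of growth signalling at the protein level, was lower in liver by a smaller amount. Its message ranged over 12.96, 13.12 and 13.19 in liver and 13.54, 13.85 and 13.95 in backfat, and the difference was -0.71 ± 0.078 (adjusted p = 5.9e-06, limma). With both probe sets of RPS6 averaged it was -0.0042 and did not pass (adjusted p = 0.98, limma). RPSA, also known as the laminin receptor, differed by -0.57 ± 0.10. RPS27A, which is made as a fusion with ubiquitin, differed by -0.52 ± 0.071. These 3 genes did not overlap between the tissues either.

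Not all small subunit genes followed. RPS29, whose product is a small zinc-binding protein, ranged over 14.35, 14.46 and 14.56 in liver and 14.43, 14.55 and 14.63 in backfat. The ranges overlapped and the difference of -0.094 ± 0.072 did not pass the test (adjusted p = 0.25, limma). RPS21 differed by -0.15 ± 0.077 and did not pass either (adjusted p = 0.099, limma). RPS23, RPS2, RPS28 and RPS18 passed the test, although their liver and backfat values overlapped, with differences of -0.21, -0.29, -0.44 and -0.70.

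In the large subunit, 30 of the 33 core genes tested were lower in liver, 2 were higher and RPL26 did not pass. The median difference was -0.77. The 3 proteins of the stalk, the flexible arm that recruits translation factors to the ribosome, were all lower. RPLP2 ranged over 11.47, 11.62 and 11.92 in liver and 12.87, 12.96 and 13.20 in backfat, a difference of -1.33 ± 0.079 (adjusted p = 2.2e-08, limma). RPLP1, its partner, ranged over 11.38, 11.60 and 11.78 in liver and 12.63, 12.78 and 12.94 in backfat, a difference of -1.20 ± 0.083. RPLP0, which anchors both to the subunit, differed by less, -0.75 ± 0.075, with 13.08, 13.34 and 13.50 in liver against 13.92, 14.08 and 14.22 in backfat. None of the 3 overlapped between tissues. The second probe set of RPLP0 was higher in liver by 3.09 ± 0.19, and with probe sets averaged RPLP0 gave 1.17 (adjusted p = 1.2e-06, limma). That of RPLP1 differed by 0.24 ± 0.12 and did not pass (adjusted p = 0.077, limma).

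Among the other large subunit genes that were lower in liver, those with a difference of more than 1 in size were RPL13A, RPL12, RPL31 and RPL6. RPL13A, also known as a repressor of the translation of inflammatory messages, ranged over 12.64, 12.91 and 13.05 in liver and 13.96, 14.10 and 14.19 in backfat, a difference of -1.19 ± 0.074. RPL12, a protein at the base of the stalk, ranged over 11.99, 12.37 and 12.51 in liver and 13.25, 13.38 and 13.57 in backfat, a difference of -1.08 ± 0.092. RPL31 differed by -1.04 ± 0.073 and RPL6 by -1.01 ± 0.071. The ranges of these 4 genes did not overlap. With all tested probe sets of a gene averaged, RPL12 gave -0.11 (adjusted p = 0.63, limma) and RPL6 -0.26 (adjusted p = 0.066, limma), and neither passed.

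**Figure D2:**
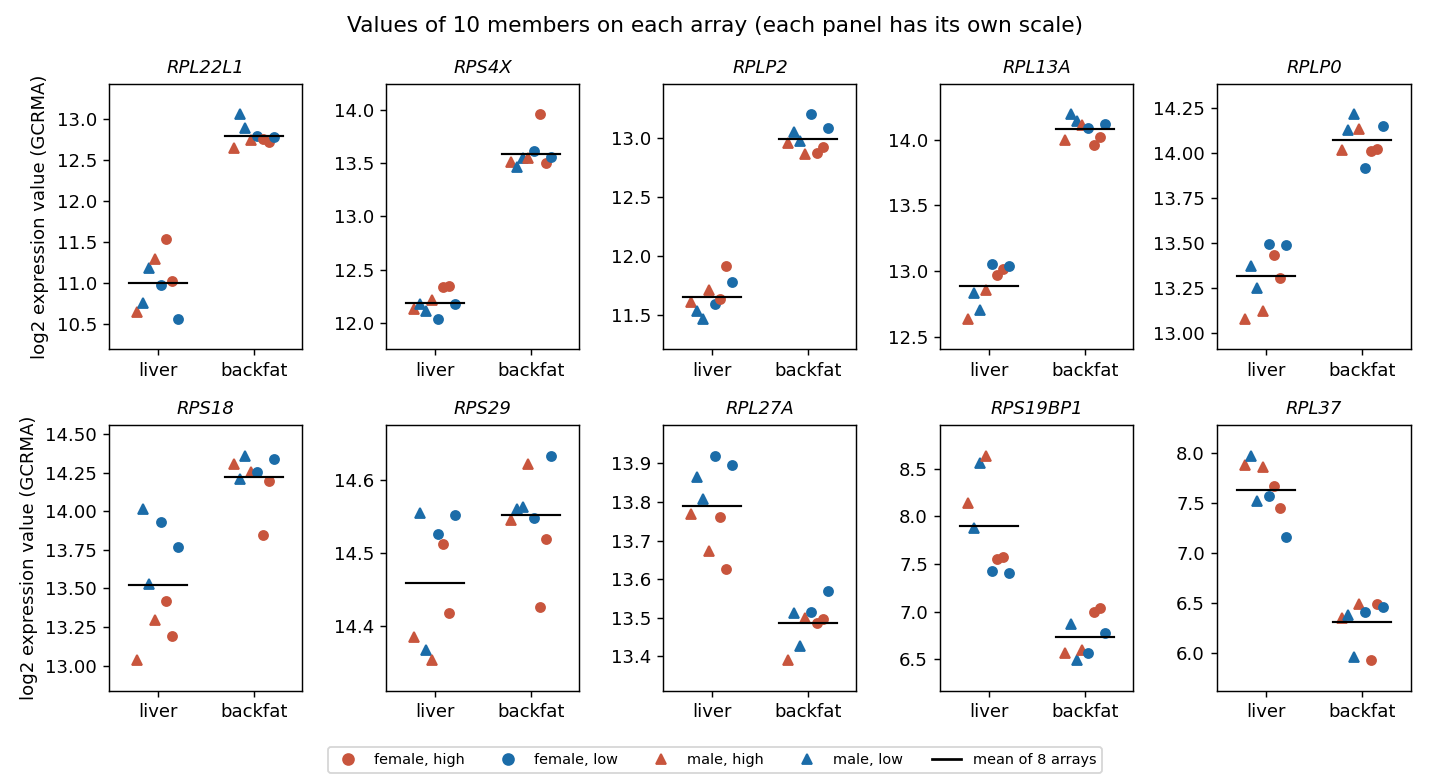
Log2 values of 10 ribosomal protein genes on each array, in liver and backfat, with circles for females, triangles for males, red for high and blue for low feeding, and a line at the mean of 8 arrays; each panel has its own axis range. RPL22L1, RPS4X, RPLP2, RPL13A and RPLP0 separate the tissues with backfat above, RPL27A, RPS19BP1 and RPL37 with liver above, and RPS18 and RPS29 overlap.

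The 3 genes that were higher in liver were RPL37, RPS19BP1 and RPL27A. RPL37 ranged over 7.16, 7.62 and 7.98 in liver and 5.93, 6.40 and 6.49 in backfat, a difference of 1.33 ± 0.12 (adjusted p = 1.2e-06, limma). RPS19BP1 ranged over 7.40, 7.73 and 8.64 in liver and 6.49, 6.69 and 7.04 in backfat, a difference of 1.16 ± 0.12. RPL27A ranged over 13.63, 13.79 and 13.92 in liver and 13.39, 13.50 and 13.57 in backfat, a difference of 0.30 ± 0.071 (adjusted p = 0.0023, limma). All liver arrays lay above all backfat arrays for each of these genes. RPL37 and RPS19BP1 have 1 probe set each, with all values under 9, and of the 18 further probe sets of other members with a mean in that range, 13 had a difference above 0. The part of low signal in the values of RPL37 and RPS19BP1 was not tested. In a fit to the males alone, with the animal as a block, RPL27A no longer passed (0.32, adjusted p = 0.071, limma), nor did RPL36AL (-0.34, adjusted p = 0.065, limma).

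The paralogs were set beside their core partners. RPL22L1, which takes the place of RPL22 in some ribosomes and also binds RNA outside them, had the largest difference of all members. It ranged over 10.56, 10.998 and 11.54 in liver and 12.64, 12.77 and 13.06 in backfat, a difference of -1.80 ± 0.13 (adjusted p = 1.2e-07, limma), or 3.49-fold. Its partner RPL22 ranged over 13.21, 13.36 and 13.49 in liver and 13.79, 13.89 and 14.02 in backfat, a difference of -0.53 ± 0.079. Both were lower in liver, and the difference between the paralog and its partner was not tested.

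RPS27L, a p53-responsive relative of RPS27, differed by -0.45 ± 0.071, and RPS27 by -0.76 ± 0.089. RPL36AL differed by -0.34 ± 0.090, with overlapping ranges. RPL7L1 differed by 0.013 ± 0.12 (adjusted p = 0.93, limma) while RPL7 differed by -0.81 ± 0.089. RPL26L1 differed by 0.12 ± 0.084 and RPL26 by 0.16 ± 0.078, and neither passed the test (adjusted p = 0.21 and 0.076, limma). Both passed as higher in liver when arrays were set to a common median (0.24 and 0.28, adjusted p = 0.018 and 0.0082, limma). The values of RPL26 lie near the detection limit in both tissues. RPL3 differed by -0.67 ± 0.094. Of the 5 paralogs 3 were thus lower in liver and 2 did not pass. With probe sets averaged, RPL7 gave -0.18 (adjusted p = 0.18, limma) and RPS27 -0.61 (adjusted p = 0.092, limma), and neither passed.

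The members often used as reference genes in quantitative PCR are RPLP0, RPL4, RPL13A, RPL19, RPL32, RPS18 and RPS20. All 7 were lower in liver, by between -0.65 (RPL19) and -1.19 (RPL13A), although with probe sets averaged RPL32 gave -0.15 and did not pass (adjusted p = 0.43, limma) and RPLP0 was higher in liver. Within a tissue they differed less. Between feeding levels their differences ran from 0.035 to 0.57 in liver and from 0.013 to 0.14 in backfat, and between the sexes from 0.088 to 0.26 in liver and from -0.12 to 0.076 in backfat. None of these within-tissue differences passed the test, the lowest adjusted p being 0.29 (limma).

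The tissue difference was read against the choice of probe set, because 24 genes had 32 further probe sets, of which 22 were tested. The 4 with a mean above 12, for RPL27, RPL31 and RPS18, were all lower in liver, by between -0.90 and -1.15. Of the 18 with a mean under 9, 9 were higher in liver, 4 were lower and 5 did not pass. In 7 pairs (RPL6, RPS6, RPL17, RPL32, RPL23, RPL24 and RPL12) the identifiers of the bright and the dim probe set differ only in the letter A for S. The chosen, bright one was lower in liver in all 7, and the dim one had a difference above 0 in all 7, from 0.50 to 1.16, of which 6 passed the test. The second probe set of RPLP0 was higher in liver by 3.09 ± 0.19, and that of RPS25 lower by -4.34 ± 0.12. What the dim probe sets detect was not tested, as probe sequences were not used here. When all tested probe sets of a gene were averaged, 42 members were lower in liver and 4 higher, the median difference was -0.56, and RPLP0 turned to 1.17. In the main fit 43.6% of all probe sets were lower in liver and 32.2% higher.

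The members are bright probe sets, and GCRMA scales arrays by quantiles. Of the 160 probe sets with a mean above 12 that belong to no ribosomal protein gene by the rule, 59.4% were lower in liver with a median difference of -0.34. Of the 54 members above 12, 94.4% were lower with a median of -0.73. This split by brightness was chosen after the values were seen. RNA quality controls also differed between tissues. The 3′ minus 5′ signal of the actin control ran from 3.26 to 4.13 in liver and 2.19 to 3.41 in backfat, which overlap, as did the values of GAPDH. That of the elongation factor control ran from 0.85 to 1.35 in liver and 0.37 to 0.67 in backfat and did not overlap. The macrophage markers, whose mean was 8.47 to 9.15 in liver and 4.71 to 7.01 in backfat, moved with tissue as well. In the direction of the ribosomal protein genes, the endothelial markers had means of 5.001 to 5.63 in liver and 7.14 to 8.19 in backfat. The means of the fibroblast markers were 5.42 to 6.46 and 8.28 to 9.38. Not all markers of these lists did so. FBLN1 ranged higher in liver (6.52 to 8.59) than in backfat (5.29 to 6.76), as did COL3A1 (4.44 to 5.29 and 3.34 to 4.87), both with overlap. TEK overlapped as well, and KDR and TIE1 were above 4 on no array. The part of these measures in the ribosomal protein difference was not tested.

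Other genes of the translation machinery were read beside the ribosomal proteins from lists of symbols, whose shares stand beside the 43.6% of all probe sets that were lower in liver and the 32.2% that were higher. Of 13 elongation factors and other genes with TOP messages, 9 were lower in liver (69.2%), 1 was higher and 3 did not pass, with a median of -0.51. NACA and BTF3, the subunits of the complex that binds nascent chains at the ribosome, differed by -1.16 ± 0.080 and -0.99 ± 0.077, and EEF1D, a subunit of the elongation factor 1 exchange complex, by -1.22 ± 0.086. VIM, the intermediate filament of mesenchymal cells, differed by -4.67 ± 0.10. The 1 gene that was higher, EEF1A1, differed by 0.61 ± 0.17 and is named because its value was seen.

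Of 31 initiation factors 26 were lower in liver (83.9%) and 3 higher (9.68%), with a median of -0.52. EIF3A, EIF3E and EIF3H, subunits of the largest initiation factor, which binds the small subunit, differed by -1.01 ± 0.086, -1.12 ± 0.089 and -1.01 ± 0.083. EIF2B2, a subunit of the exchange factor for EIF2, differed by -1.41 ± 0.095. Of 48 genes of ribosome assembly 22 were lower (45.8%) and 8 higher (16.7%), with a median of -0.14, so that the lower share and the median were near those of all probe sets. The 4 of lowest p were all lower ones. UTP18 and RRP9, proteins of the small subunit processome, differed by -1.56 ± 0.093 and -1.26 ± 0.093, FTSJ3 by -1.25 ± 0.097, and SBDS, which frees the large subunit for joining, by -1.07 ± 0.094.

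Of 22 genes of growth signalling to the ribosome, 12 were lower (54.5%) and 5 higher (22.7%), with a median of -0.56. AKT1 and AKT2, the kinases of insulin signalling upstream of mTOR, differed by -2.38 ± 0.11 and -2.83 ± 0.14. ATF4, the transcription factor of the amino acid response, differed by -1.70 ± 0.078, and FKBP1A, the protein through which rapamycin acts on mTOR, by -1.28 ± 0.085. The proteins of the mitochondrial ribosome, a separate particle that translates mitochondrial messages, were the list with a median above 0. Of its 56 genes 26 were higher in liver (46.4%) and 14 lower (25%), with a median of 0.23. MRPS17, MRPL38, MRPS27 and MRPS24 were higher in liver by 2.25 ± 0.10, 1.96 ± 0.11, 1.89 ± 0.093 and 1.33 ± 0.085.

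**Figure D3:**
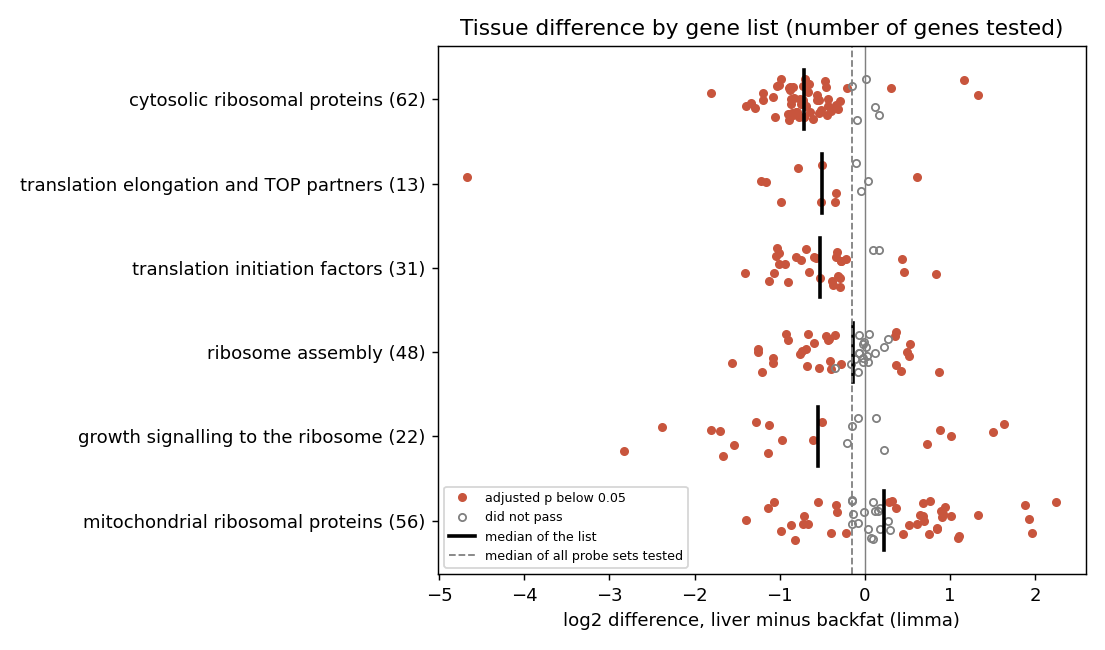
Log2 difference between liver and backfat for the genes tested in each list, with filled points for genes that passed the test and open points for those that did not. Black bars mark the list medians, from -0.71 for the cytosolic ribosomal proteins to 0.23 for the mitochondrial ones, and the dashed line is the median of all probe sets.

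The effect of feeding level was examined next, within each tissue. In liver no member passed the test between low and high feeding, nor did any probe set (0% of 12617, limma). At an unadjusted p below 0.05 there were 2 members and 11.5% of all probe sets. The median difference of the members was 0.068 and that of all probe sets -0.010. In 44 of 62 members the level was above that of high feeding, where 48.2% of all probe sets were. Of the members, 57 differed by less than 0.25 in size, and the median standard error was 0.12.

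RPS18, a protein of the small subunit head, had the largest value. On high feeding its 4 liver arrays read 13.04 and 13.29 (males 14 and 17) and 13.42 and 13.19 (females 19 and 20). On low feeding they read 14.02 and 13.53 (males 15 and 16) and 13.93 and 13.77 (females 18 and 21). All 4 low values lay above the 4 high ones, and the difference of 0.57 ± 0.16 did not pass (adjusted p = 0.33, limma). The other probe sets of RPS18 gave 0.022 ± 0.11 and 0.10 ± 0.13 for the same contrast.

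The values also did not overlap, with low feeding above, for RPS20, RPL27A and RPS21. Thus 4 members were separated in this direction and none in the other, against 2.80% and 3.11% of all probe sets. RPS20 read 13.17, 13.25, 13.28 and 13.29 on high and 13.29, 13.40, 13.54 and 13.46 on low feeding, a difference of 0.17 ± 0.11. Its separation was very narrow, from 13.2879 as the highest value on high to 13.2880 as the lowest on low feeding. RPL29 differed by 0.27 ± 0.13, RPL19 by 0.22 ± 0.12, RPL24 by 0.22 ± 0.13, RPL38 by 0.22 ± 0.14, RPL14 by 0.18 ± 0.11, RPLP0 by 0.17 ± 0.11 and RPL27A by 0.16 ± 0.11, and RPL26, near the detection limit, by 0.27 ± 0.11. Their adjusted p-values were 0.42 or more (limma).

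In backfat no member and no probe set passed the test between feeding levels either (0% of 12686, limma), and at an unadjusted p below 0.05 there was no member and 11.1% of all probe sets. The median difference of the members was 0.061 and that of all probe sets 0.0065. In 50 of 62 members low feeding was above high, where 51.1% of all probe sets were. The values of 7 members were separated with low feeding above and of none with it below, against 3.25% and 3.36% of all probe sets. These were RPS9, RPS15, RPLP2, RPS6, RPL22L1, RPS2 and RPL32, the last 2 of them named because their values were seen.

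RPS9, a small subunit protein near the entry of the messenger, read 12.20 and 12.12 (males 14 and 17) and 12.06 and 12.25 (females 21 and 22) on high feeding. It read 12.32 and 12.52 (males 15 and 16) and 12.38 and 12.59 (females 20 and 23) on low feeding. The difference was 0.29 ± 0.13 (adjusted p = 0.46, limma). RPS15 differed by 0.23 ± 0.11, RPS6 by 0.18 ± 0.13, RPLP2 by 0.17 ± 0.11, RPL22L1 by 0.17 ± 0.11, RPS26 by 0.16 ± 0.11, RPL38 by 0.16 ± 0.14, RPL12 by 0.15 ± 0.12, RPL13 by 0.14 ± 0.12 and RPS27L by 0.14 ± 0.11. None passed the test, with adjusted p-values of 0.50 or more (limma).

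Means of cell type markers were also read by feeding level in backfat, without a test. The mean of the macrophage markers was 4.71 to 5.42 on low and 5.50 to 7.01 on high feeding. That of the proliferation markers was 3.35 to 3.40 and 3.52 to 4.36, and 4 of these 8 markers were above 4 on no backfat array. The endothelial means (7.14 to 7.68 and 7.42 to 8.19) and the fibroblast means (8.78 to 9.04 and 8.28 to 9.38) overlapped between feeding levels. The means of the adipocyte markers, 11.09 to 11.274 on low and 11.265 to 12.03 on high feeding, overlapped as well. Their part in the small differences of the ribosomal protein genes was not tested. Whether the feeding difference itself differed between tissues was tested as an interaction, and no member passed, where 0.0215% of all probe sets did (limma). At an unadjusted p below 0.05 there was no member either, against 8.77% of all probe sets. The lowest p-values were those of RPS18 (0.43 ± 0.20), RPLP2 (-0.30 ± 0.16) and RPL22L1 (-0.42 ± 0.26), the difference in liver minus that in backfat.

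**Figure D4:**
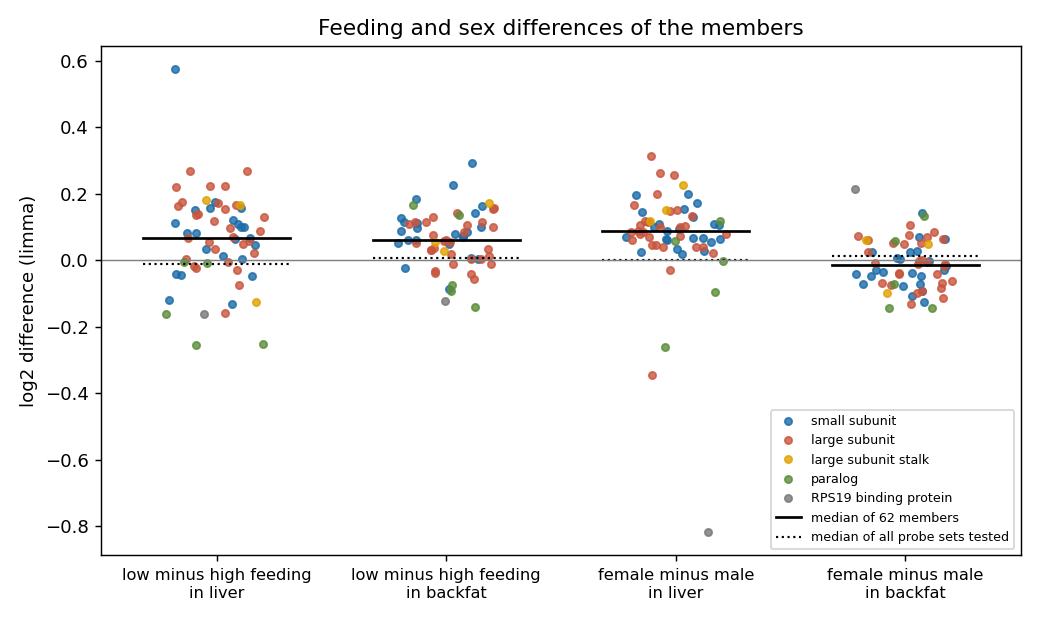
Log2 differences of the 62 ribosomal protein genes between feeding levels and between sexes in each tissue (points, n = 4 arrays against 4), with the median of the members as a solid line and that of all probe sets as a dotted line. The member medians are 0.068, 0.061, 0.087 and -0.014 from left to right, and RPS18 (0.57) and RPS19BP1 (-0.82) lie apart in liver.

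Between females and males, no member passed the test in liver, where 4.53% of 12617 probe sets did (limma). At an unadjusted p below 0.05 there were 2 members and 19.2% of all probe sets. The members lay slightly above in females, with a median difference of 0.087 against 0.00053 over all probe sets. In 56 of 62 members the female mean was above the male one, where 50.1% of all probe sets were. All 23 small subunit core genes had a difference above 0, from 0.019 to 0.20, and all 3 stalk genes, from 0.12 to 0.23.

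RPS19BP1, which is known to bind RPS19 and to activate the deacetylase SIRT1, had the largest value and the opposite sign. Its liver values were 8.14, 7.88, 8.56 and 8.64 in males 14, 15, 16 and 17 and 7.42, 7.56, 7.58 and 7.40 in females 18, 19, 20 and 21. All females lay below all males, and the difference of -0.82 ± 0.19 did not pass (adjusted p = 0.069, limma). It passed where the spread was taken from all 16 arrays (adjusted p = 0.015, limma).

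RPL9 read 13.07, 13.18, 13.02 and 12.98 in males and 13.29, 13.41, 13.42 and 13.38 in females in the same order, a difference of 0.31 ± 0.11 (adjusted p = 0.19, limma). RPL13A and RPL31 were separated in the same way, so that 3 members lay wholly above in females and 1 wholly below, against 5.59% and 6.24% of all probe sets. RPL13A differed by 0.26 ± 0.12, RPLP0 by 0.23 ± 0.11, RPL14 by 0.20 ± 0.11, RPS9 by 0.20 ± 0.14, RPS27 by 0.20 ± 0.14 and RPS27A by 0.15 ± 0.11. RPL37 differed by -0.35 ± 0.16, and RPL26 by 0.26 ± 0.11. None of these passed the test.

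In backfat no member passed between the sexes, where 0.110% of 12686 probe sets did (limma), and none had an unadjusted p below 0.05, where 6.04% of all probe sets had. The median difference was -0.014 against 0.014 over all probe sets, and 25 of 62 members lay above in females, against 52.7% of all. RPL36AL, RPL7 and RPS3A were separated with females above and none with females below, against 2.08% and 1.46% of all probe sets. All 62 differences were smaller than 0.25 in size. RPS19BP1 differed by 0.21 ± 0.14, RPS27L by -0.14 ± 0.11, RPL26L1 by -0.14 ± 0.12, RPL36AL by 0.13 ± 0.12, RPL27 by -0.13 ± 0.13 and RPS4X by 0.14 ± 0.14, with adjusted p-values of 0.85 or more (limma).

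The sex difference of liver minus that of backfat was tested as an interaction. No member passed, where 2.21% of 13962 probe sets did (limma), and 1 member had an unadjusted p below 0.05, as had 13.5% of all probe sets. That member was RPS19BP1, with -1.03 ± 0.24 (adjusted p = 0.053, limma). The difference was above 0 in 52 of 62 members, where it was in 47.9% of all probe sets, and the median was 0.12 against -0.019. RPL13A had 0.32 ± 0.15 and RPL26 0.34 ± 0.16.

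The interaction of sex and feeding gave no member past the test in liver or backfat, and no probe set at all (0% in each, limma). No member had an unadjusted p below 0.05 in either tissue, against 5.43% and 5.27% of all probe sets. The lowest p-values in liver were those of RPL26 (0.50 ± 0.22), RPL29 (0.35 ± 0.25) and RPL22L1 (-0.51 ± 0.44), and in backfat those of RPS19BP1 (-0.45 ± 0.27), RPL37 (0.47 ± 0.35) and RPL26 (0.28 ± 0.25). With 2 arrays per group these estimates are wide, and the median standard error of the members was 0.25 in liver and 0.23 in backfat.

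The ribosomal protein genes shifted together on several arrays. For each array the deviation of every member from its mean over the 8 arrays of the tissue was taken, and the median over the members was read beside that of all probe sets. In liver the lowest array was male 14 on high feeding, at -0.14, with 55 of 62 members below their mean. The highest were females 21 and 18, both on low feeding, at 0.090 and 0.084, with 48 and 45 members above. In backfat the lowest were female 21 at -0.087 (44 members below) and male 14 at -0.065 (53 below), both on high feeding, and the highest were male 15 at 0.050 and female 23 at 0.049, both on low feeding. The medians of all probe sets stayed between -0.032 and 0.026.

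**Figure D5:**
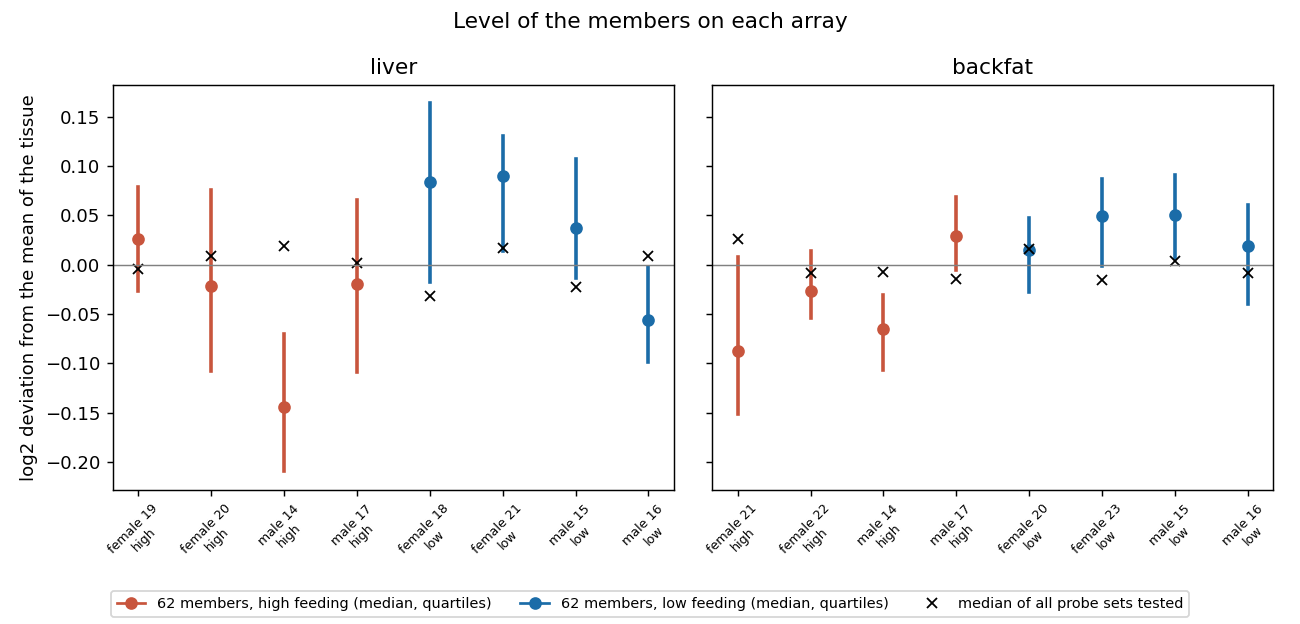
Median deviation of the 62 ribosomal protein genes from their mean over the tissue on each array (points, with bars from the lower to the upper quartile of the members) and the median of all probe sets tested (crosses). Male 14 lies lowest in liver at -0.14 and female 21 lowest in backfat at -0.087, while the crosses stay between -0.032 and 0.026.

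Single arrays carried part of the small within-tissue differences. Without male 14 the median feeding difference of the members was 0.040 in liver, with 41 of 62 above 0, and 0.031 in backfat, with 42 above 0. Without male 16 the feeding median of liver was 0.11, with 48 above 0. The median sex difference in liver was 0.047 without male 14, with 46 of 62 above 0, and the median of the tissue by sex interaction was 0.078 without the liver array of that male. The median sex difference of backfat lay between -0.051 and 0.0085 when 1 array was left out, and was above 0 only without male 17. Without female 21 of backfat the feeding median of backfat was 0.049, and the tissue comparison still gave 54 members lower in liver and 3 higher.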

How the data were processed

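Total RNA from 16 tissue samples (RiboPure extraction, biotin label) was measured on a porcine Affymetrix array, according to the labels. The authors deposited 1 table of log2 values from GCRMA, a method named without a version in the submitters' processing notes. Its settings, and any scan batch, are not stated there. GCRMA corrects background by probe sequence and normalizes by quantiles, so a global change of RNA content would not be seen.

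The table held 24123 probe sets. The 124 controls were left out of the tests. In the platform annotation 10099 probe sets had 1 symbol, 198 had several and 13826 had none listed. All 64 Entrez IDs matched the RefSeq table. Of the chosen probe sets, 9 carry a suffix letter, which marks probes shared with other transcripts. A probe set was tested when above 4 on at least 2 arrays of the fit. Group means were fitted with limma 3.58.1 in R 4.3.3 (lmFit and eBayes), within a tissue (4 groups) or over all 16 arrays (8 groups), and p-values were adjusted by Benjamini-Hochberg over all probe sets tested, with 0.05 as threshold. Differences carry the SE of this fit. Scripts were tested on simulated data. The number of arrays limits the precision.

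Males 14 to 17 have both tissues, so a fit to males with the animal as a block was run. Same-animal deviations correlated at 0.055 to 0.087 over all probe sets. Other alternatives changed the filter, scaling, model, probe set and arrays.

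The members and lists were chosen with earlier results of these data known. Genes named were the members with up to 10 of the largest called tissue differences in each direction, the 10 of lowest p for feeding and sex, the 3 of lowest p for interactions, the paralogs and their partners, the reference genes, RPS6, RPSA and RPS27A, and from each other list the 4 of lowest p.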

Additional observations from a re-analysis of the deposited data

Results flagged for a closer look

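Of 152 groups of 4 or 8 arrays, 9 held an array far from the others by Dixon's criterion, where chance flags about 5%. The count is thus near that of chance. The groups were of named members or of the median deviation of the members, and they share arrays. Of the 9, 5 concern female 21 on high feeding in backfat, the array with the low 28S control signal. It read 13.96 for RPS4X, where the other backfat arrays read 13.46 to 13.61, and 12.91 for RPL36AL, where they read 12.51 to 12.69. It was low for RPL32 at 13.42 against 13.69 to 13.77, for RPS18 at 13.84 against 14.19 to 14.36, and for RPL26 at 3.68 against 3.98 to 4.12. Male 14 was low in liver for RPS6, at 12.96 against 13.09 to 13.19 on the other 7 arrays, and for RPS9 among the males, at 11.08 against 11.44 to 11.50. In backfat male 17 was high for RPS26 among the arrays on high feeding, at 13.85 against 13.68 to 13.71, and male 16 was low for RPL36AL among the males, at 12.51 against 12.60 on the others.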

How the results depend on the processing

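In the main fit 57 of 62 members (91.9%) and 75.7% of all probe sets were called between tissues. The count of members lay between 46 and 61 over 30 alternatives. It was 57 with the random replicate block, 53 in males with the fixed replicate block, 46 with probe sets averaged per gene and 56 to 58 when 1 array was left out. The shares of all probe sets under these alternatives are not given here. The median difference moved to -0.592 with arrays set to a common median, -0.590 with that median taken over probe sets that are no members, -0.788 in males alone with or without the replicate block, and -0.563 with probe sets averaged. The median of all probe sets, -0.152 in the main fit, moved to -0.030 and -0.028 with the common medians. It was -0.135 in males alone and -0.150 with probe sets averaged. With a common median 52 members were lower in liver and 5 higher. RPLP0 reversed to 1.17 between tissues and to -0.124 between the sexes in liver with probe sets averaged, which also ended the calls of RPL12, RPL6, RPL7, RPS27, RPL32 and RPS6. RPL26 reversed to -0.0073 in males alone and passed as higher in liver in 5 alternatives (lowest adjusted p = 0.0080, limma), as RPL26L1 did in 2 (lowest adjusted p = 0.017, limma), and RPL7L1 ran from -0.070 to 0.096 when 1 array was left out. Without probe sets that carry a suffix letter, RPS18 turned to 0.025 between the sexes in backfat and to -0.020 for the tissue by feeding interaction.

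RPS19BP1 was the 1 member called between the sexes in liver with the filter at 6, without the interaction term, with all 16 arrays and with the random replicate block (adjusted p from 0.015 to 0.18 over all alternatives, limma). It was the 1 member called in the tissue by sex interaction with the filter at 6, with an intensity trend and robust estimation and with values under 4 set to 4. When 1 array was left out that count ran from 0 to 1, and was 1 without male 14 or without male 15 of liver (adjusted p from 0.025 to 0.14 over all alternatives, limma). The median of the sex by feeding interaction ran from -0.067 to 0.080 in liver and from -0.045 to 0.063 in backfat when 1 array was left out, and was lowest without male 17 in both. The causes were not tested. Of 83 results for named genes, 66 kept direction and side of the threshold under every alternative run. The 83 include 31 of the tissue comparison, which held most of the changes. None of the feeding, sex and interaction results passed in the main fit, so that most were far from changing side. The pooled count therefore does not measure how firm the tissue calls are. Values near 4, as for RPL26, are limited by signal over background.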

Other observations

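The control probe sets for ribosomal RNA, the other component of the ribosome, had higher medians in liver. That is the opposite direction to most messages of ribosomal proteins. One set for 18S RNA ran from 11.09 to 11.86 in liver and from 9.75 to 11.04 in backfat. The other ran from 6.90 to 8.18 and from 3.74 to 6.67. The set for 5S RNA ran from 5.66 to 8.40 and from 4.0002 to 7.05, with overlap. One set for 28S RNA ran from 11.50 to 12.06 in liver and from 8.08 to 11.27 in backfat, and the other overlapped. These are signals of arrays that label RNA with poly(A) tails, and no test was made on them.

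In the mitochondrial ribosome 2 of 56 genes passed the test between the sexes in liver, both lower in females. This is 3.57% of the list, where 4.53% of all probe sets passed, so the count is not above that of all probe sets. MRPS27 differed by -1.27 ± 0.15 (adjusted p = 0.0069, limma) and MRPS9 by -0.63 ± 0.13 (adjusted p = 0.048, limma). The median of the list was -0.19, and 46 of its 56 differences lay below 0, where 49.9% of all probe sets did and 6 of the 62 cytosolic members. MRPS27 also passed in the tissue by sex interaction, at -1.29.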
